A study of Rattus norvegicus with 10 samples.

Results

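Mef2a, Mef2c and Mef2d encode transcription factors of the myocyte enhancer factor 2 family, Creb1 encodes the cAMP response element binding protein, and Crebbp and Ep300 encode a pair of closely related coactivators. Transcripts of these 6 genes were examined in the hippocampus of male Wistar rats, over every probe set that the platform annotation ties to exactly 1 of the 6 symbols. There were 19 such probe sets among 31042 analysed (14217 named genes), with 4 for Mef2a, 2 for Mef2c, 2 for Mef2d, 5 for Crebbp, 2 for Ep300 and 4 for Creb1. The study compared 5 rats given solid chow (C-group) with 5 rats given powdered chow (P-group), to ask how chewing during weaning affects hippocampal transcripts. All 10 rats had powdered feed for acclimatization before they were split, then the diet of their group for 8 days, and are labeled as 4 weeks old. The C-group rats had therefore also eaten powder before the experiment, and both groups were housed so as to limit chewing on anything but feed. Each array held the RNA of 1 manually dissected hippocampal sample with all its cell types, and a smaller number of cells of 1 type cannot be told apart from less RNA per cell.

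MEF2 factors bind DNA as dimers and couple calcium entry at active synapses to transcription. Class IIa histone deacetylases hold them in a repressive state, which calcineurin and calcium-dependent kinases relieve, and the kinase ERK5 activates them directly. Creb1 binds the cAMP response element and, once phosphorylated by protein kinase A or calcium/calmodulin-dependent kinases, recruits Crebbp or Ep300, histone acetyltransferases that MEF2 factors also use. In the hippocampus both families are known for roles in synapse number, dendrite form and long-term memory.

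The promoters of Mef2a, Mef2d, Crebbp, Ep300 and Creb1, but not of Mef2c, were taken from RefSeq (build GRCr8), as the 250 bases before each annotated start, with 2 starts for Creb1. Those of Mef2a and Crebbp are shown because these genes had the most similar values over the rats, and the first of Creb1 for its short CREB-type elements. Capitals mark motif matches in the windows of Mef2a (chr1:130392163-130392412, minus strand), Crebbp (chr10:11842090-11842339, plus strand) and Creb1 (chr9:73397259-73397508, plus strand), and each sequence runs 5′ to 3′ on the strand of the gene.
Mef2a: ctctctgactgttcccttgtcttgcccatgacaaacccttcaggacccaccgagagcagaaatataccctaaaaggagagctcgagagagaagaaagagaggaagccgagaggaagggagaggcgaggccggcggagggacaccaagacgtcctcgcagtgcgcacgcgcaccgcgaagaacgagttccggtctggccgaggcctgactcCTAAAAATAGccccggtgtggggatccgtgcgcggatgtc
Crebbp: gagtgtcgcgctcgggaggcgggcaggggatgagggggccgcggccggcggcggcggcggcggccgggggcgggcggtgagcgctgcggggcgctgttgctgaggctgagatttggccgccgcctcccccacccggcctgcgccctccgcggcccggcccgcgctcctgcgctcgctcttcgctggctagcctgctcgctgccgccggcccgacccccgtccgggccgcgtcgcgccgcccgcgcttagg
Creb1: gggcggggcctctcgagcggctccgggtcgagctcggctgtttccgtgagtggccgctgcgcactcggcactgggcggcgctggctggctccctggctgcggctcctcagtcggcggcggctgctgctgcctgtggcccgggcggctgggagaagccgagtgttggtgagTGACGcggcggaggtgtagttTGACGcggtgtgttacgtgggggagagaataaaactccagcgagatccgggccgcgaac
The MEF2 consensus element was matched once, in the Mef2a window, as CTAAAAATAG from 40 to 31 bases before the start. The short CREB-type element TGACG, searched on both strands, was matched 2 times before the first start of Creb1, 80 to 76 and 59 to 55 bases upstream, and in none of the other 5 windows. The full cAMP response element TGACGTCA, which contains the short one on each strand, was in none of the 6 windows. Of 33469 promoter windows of this length, 2.96% held the MEF2 element, 18.2% the short CREB-type element and 1.59% the full one. The window of Crebbp, at 82% G and C, held none of the 3 motifs. These matches are a description of the letters and were not tied to the array values.

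The array values are log2 expression values that the authors made with qFARMS, a factor model under which a probe set stays nearly flat unless several of its probes vary together. Over all probe sets, 2904 (9.36%) had a standard deviation (SD) above 0.01 log2 units over the 10 rats and are called variable here, and the others are called constant. The 14 hippocampal neuron markers, such as Prox1 and Neurod6, had log2 levels from 7.97 to 12.20 at the brightest probe set of each gene, which is only a rough check of the tissue because array levels depend on the probes. Rat C1 stood apart and ranked first of the 10 rats at 53.5% of the variable probe sets, and rat P2 had a mean of 8.53 over 9 pineal and photoreceptor markers against 6.11 to 6.20 in the other 9 rats. Over 21 variable choroid plexus markers the mean was 9.01, 8.63, 8.62, 8.42 and 7.76 in C1, C5, P3, C2 and P5, and the remaining 5 rats had 6.73 to 7.07. Precision is limited by the small number of arrays.

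Differences between the groups were small at all 19 probe sets. Of the 19, 5 were variable, namely 2 of Mef2a, 2 of Mef2c and 1 of Crebbp, and all 5 had a higher mean in the C-group, by 0.05 to 0.27 log2 units. Rank products, the method the study used, called 1 probe set each of Mef2a, Mef2c and Crebbp higher in the C-group at a false discovery rate (FDR) under 0.05, and none lower. The same rule called 2.0% of all probe sets higher and 0.416% lower, and 21.3% of the variable ones higher and 4.44% lower. Rank products orders differences by size and does not weigh them against the spread between rats, so a variable probe set enters with an advantage over a constant one. limma, which weighs each difference against that spread, called none of the 19 and none of all 31042 probe sets (0%) at an adjusted p under 0.05. At an unadjusted p under 0.05 limma passed 1 of the 19, the Mef2a probe set 1393290_at (unadjusted p = 0.0383), against 2.95% of all probe sets and 1.14% of the variable ones. The median difference was 0.13 log2 units over the 5 variable probe sets of these genes, against 0.07 over all 2904 variable probe sets, 68.3% of which were higher in the C-group.

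**Figure D1:**
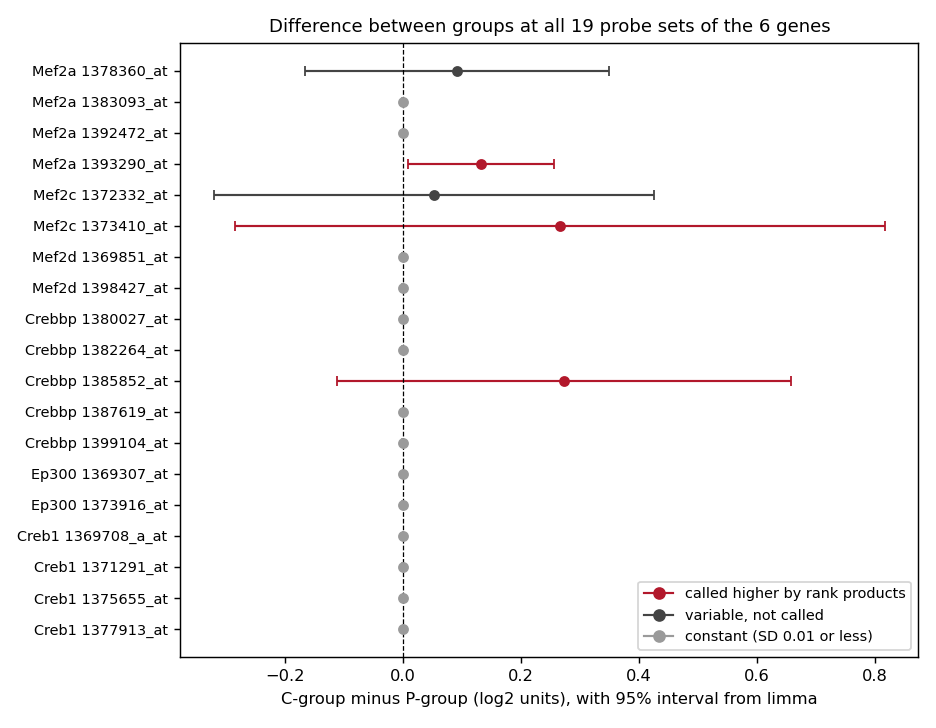
C-group minus P-group in log2 units (horizontal axis) at each of the 19 probe sets (vertical axis), with 95% intervals from limma. Red marks the 3 probe sets called higher by rank products, dark grey the other 2 variable ones and light grey the 14 constant ones, which sit at 0 with intervals narrower than the point. Only the interval of Mef2a 1393290_at, from 0.01 to 0.26, leaves out 0.

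Mef2a, a MEF2 factor present in most neurons, was called at 1 of its 4 probe sets. At 1393290_at the C-group rats C1 to C5 had log2 values of 8.79, 8.54, 8.64, 8.61 and 8.50, and the P-group rats P1 to P5 had 8.56, 8.44, 8.50, 8.49 and 8.42. The groups overlapped, although 3 of the 5 C-group rats were above every P-group rat and 4 of the 5 P-group rats were below every C-group rat. The last count includes P3, which at 8.4983 was barely below C5 at 8.4989. The means were 8.62 ± 0.11 (SD, n = 5 rats) and 8.48 ± 0.05 (SD, n = 5), 0.13 apart (standard error 0.05), or 1.10-fold. It was called by rank products (FDR 0.0311), and limma gave adjusted p = 0.927. The second variable probe set, 1378360_at, had 9.50, 9.34, 9.29, 9.23 and 8.91 in C1 to C5 and 9.34, 9.27, 9.11, 9.11 and 8.99 in P1 to P5. Here C1 was the highest rat and C5 the lowest, so the C-group enclosed the whole P-group. The difference was 0.09 (standard error 0.11) and was not called (FDR 0.135). The remaining probe sets, 1383093_at and 1392472_at, with means of 9.99 and 9.54, were constant, with all 10 rats within 0.00077 log2 units. The call at one Mef2a probe set and not at the other does not show that they differed: their per-rat difference shifted by 0.04 log2 units between groups (adjusted p = 0.643, exact permutation test over 252 splits of the rats, two-sided). The call at 1393290_at was lost without C1, C2, C3, C4 or P5 (FDR up to 0.0939) and the difference ran from 0.09 without C1 to 0.16 without C5.

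Mef2c, the MEF2 factor best known from excitatory neurons and microglia, was variable at both of its probe sets. At 1373410_at the values were 8.89, 9.21, 8.47, 8.93 and 8.51 in C1 to C5 and 8.84, 8.99, 8.77, 8.13 and 7.96 in P1 to P5. The groups overlapped, with P4 and P5 below all other rats and only C2 above every P-group rat. The means were 8.80 ± 0.31 (SD, n = 5) and 8.54 ± 0.46 (SD, n = 5), a difference of 0.27 (standard error 0.24) that rank products called higher in the C-group (FDR 0.0158) and limma did not (adjusted p = 0.927). Its 95% interval, from -0.28 to 0.82 log2 units, was the widest of the 19. At 1372332_at the values were 9.32, 10.06, 9.59, 10.11 and 9.98 in C1 to C5 and 9.67, 9.95, 9.91, 9.67 and 9.58 in P1 to P5. C1 was the lowest of the 10 rats here, while C2, C4 and C5 were above every P-group rat. The difference was 0.05 (standard error 0.16, FDR 0.071, not called), and its direction turned without C2 (-0.0082) or C4 (-0.02), whereas it was 0.17 without C1. Without C3 it was 0.11 and passed rank products (FDR 0.0457). Between the 2 Mef2c probe sets the group difference shifted by 0.21 log2 units (adjusted p = 0.643, exact permutation test, two-sided). The per-rat difference between them had an SD of 0.39 in the C-group and 0.35 in the P-group. The call at 1373410_at was lost without C1, C2, C4, P4 or P5 (FDR up to 0.0992), and the difference was 0.16 without C2 or P4 and 0.12 without P5.

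**Figure D2:**
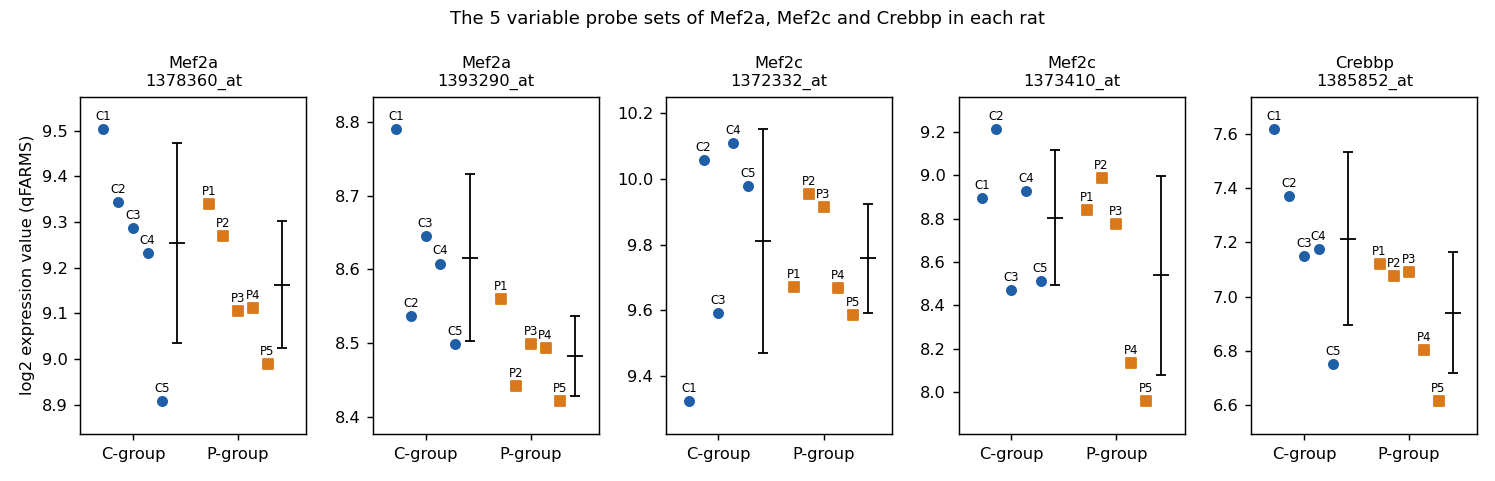
Log2 expression value (vertical axis) of each rat at the 5 variable probe sets, with the gene and probe set above each panel. Blue circles are the C-group rats C1 to C5, orange squares the P-group rats P1 to P5, and black bars the group mean and SD, and each panel has its own scale. The groups overlap in every panel, C1 is the highest rat in 3 panels and the lowest in 1, and P5 is the lowest in 3.

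Crebbp, the CREB binding protein and a histone acetyltransferase, was variable at 1 of its 5 probe sets, 1385852_at. Its values were 7.62, 7.37, 7.15, 7.18 and 6.75 in C1 to C5 and 7.12, 7.08, 7.09, 6.80 and 6.61 in P1 to P5. In this probe set 4 of the 5 C-group rats were above every P-group rat, while C5 was below all P-group rats other than P5. The means were 7.21 ± 0.32 (SD, n = 5) and 6.94 ± 0.22 (SD, n = 5), and the difference of 0.27 (standard error 0.17, 95% interval from -0.11 to 0.66) was called by rank products (FDR 0.012) but not by limma (adjusted p = 0.927). The 4 other Crebbp probe sets, with means from 6.93 to 8.77, were constant within 0.0012 log2 units. Leaving out C1 or C2 ended the call (FDR up to 0.0665), and without C1 the groups were 0.17 apart.

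Mef2d, Ep300 and Creb1 had constant probe sets throughout. The 2 probe sets of Mef2d had means of 7.29 and 7.55, the 2 of Ep300, the paralog of Crebbp, 6.62 and 8.83, and the 4 of Creb1 from 5.40 to 7.56. Within each of these 8 probe sets the 10 rats lay within 0.0016 log2 units. Over all 14 constant probe sets the SD was 0.00012 to 0.00047, the differences ran from -0.00026 to 0.00036, and 7 were positive and 7 negative. limma gave adjusted p from 0.927 to 0.994 for them, with none at an unadjusted p under 0.05. Since the factor model removes nearly all variation from such a probe set, these narrow intervals describe the deposited values and do not show that the transcripts were equal in the groups.

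Several of the variable probe sets followed each other over the rats. C2 was among the highest 5 rats in all 5 probe sets, C1, C4 and P1 in 4, and P4 and P5 in none. Mef2a 1378360_at and Crebbp 1385852_at moved together most closely of the 10 pairs of variable probe sets, with r = 0.911 (adjusted p = 0.0042, permutation test with 100000 resamples) and rho = 0.855 (adjusted p = 0.0243, permutation test). The relation was similar within the groups (r = 0.926 after each group was centred on its mean), without C1 (r = 0.863) and without C5 and P5, the rats farthest from the median of Mef2a (r = 0.864). Crebbp was related also to the called Mef2a probe set (r = 0.792, adjusted p = 0.0246, rho = 0.83, adjusted p = 0.0243, permutation tests), with r = 0.63 without C1 and C3. With the called Mef2c probe set it gave r = 0.784 (adjusted p = 0.0246, permutation test) and rho = 0.661 (adjusted p = 0.126, permutation test), with r = 0.553 without P4 and P5. The second Mef2c probe set, 1372332_at, gave r of -0.311 and -0.471 with the Mef2a probe sets and -0.136 with Crebbp (adjusted p = 0.422, 0.286 and 0.71, permutation tests), and without C1 all 3 were above 0 (r = 0.09, 0.052 and 0.463). The called Mef2c probe set gave r = 0.648 and 0.349 with the Mef2a probe sets 1378360_at and 1393290_at (adjusted p = 0.0872 and 0.404, permutation tests). The pairs across genes were chosen after the values were seen. Values of r above 0.7 were common in these arrays. Of 2042 other variable probe sets with 1 symbol, 23.8% had such an r with Crebbp 1385852_at. The share was 21.2% for Mef2a 1378360_at and 19.4% for Mef2a 1393290_at.

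For Mef2a and Mef2c, the probe sets of the same gene could be compared in the same way. The 2 variable Mef2a probe sets gave r = 0.72 (p = 0.0184, permutation test, adjusted p = 0.0368 over the 2 genes with such a pair) and rho = 0.648 (p = 0.0504, permutation test, adjusted p = 0.0803), and r = 0.723 without C5 and P5, but r = 0.53 (p = 0.142, permutation test) without C1. The 2 Mef2c probe sets gave r = 0.431 (adjusted p = 0.212, permutation test) and rho = 0.588 (adjusted p = 0.0803, permutation test). Without C1 and C4, the rats farthest from the median of 1372332_at, r was 0.731. At 1373410_at the rats farthest from the median were P4 and P5 instead. Leaving out P4 alone gave r = 0.407 and P5 alone r = 0.344, and leaving out both was not run for this pair.

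**Figure D3:**
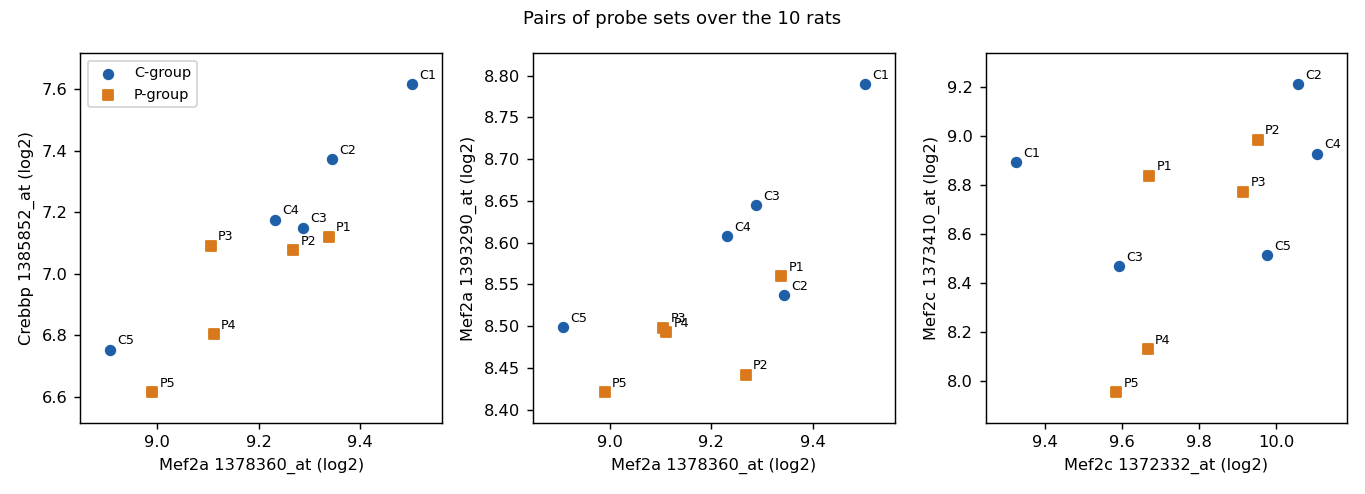
Log2 values of pairs of probe sets, 1 point for each rat (blue circles C-group, orange squares P-group). Left, Mef2a 1378360_at against Crebbp 1385852_at, where the rats lie near 1 line (r = 0.911), centre, the 2 variable Mef2a probe sets (r = 0.72), and right, the 2 Mef2c probe sets (r = 0.431), where C1 lies apart from the other rats.

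Many other probe sets closely shared the profile of Crebbp 1385852_at and of the Mef2a probe set that was not called, 1378360_at, over the 10 rats. The counts are of probe sets, so a gene can enter more than once. Among 2042 other variable probe sets with 1 symbol, 115 had r above 0.9 with Mef2a 1378360_at and 145 with Crebbp 1385852_at. Only 7 had such an r with the called Mef2a probe set 1393290_at, 4 with Mef2c 1373410_at and 2 with Mef2c 1372332_at. The contrast between the Mef2a probe sets depended on the cut-off. At the lower cut-off for r given above, their counts were similar, with 432 for 1378360_at and 396 for 1393290_at. There Crebbp 1385852_at had 487, Mef2c 1373410_at had 204 and Mef2c 1372332_at had 69. All points share the same 10 arrays and their joint normalization, and these values are given as a description. The genes most like Mef2a at its most variable probe set were Rnf150, a RING finger gene (r = 0.98), the taurine transporter gene Slc6a6 (r = 0.979) and Phf20l1, which encodes a PHD finger protein (r = 0.975). Adipor2, an adiponectin receptor gene, Ccser2 and Ash1l, a histone methyltransferase gene, were most like Crebbp (r = 0.982, 0.972 and 0.971). For Mef2c they were Hlf, a leucine zipper transcription factor gene (r = 0.957), the zinc finger gene Zfp365 (r = 0.921) and Gatad2b, which encodes a subunit of a nucleosome remodeling complex (r = 0.92).

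Markers of other cells also moved with some of these rats. Over 5 variable astrocyte markers, C1, P1 and C2 had the highest means of the 10 rats (9.98, 9.81 and 9.77) and P4 and P5 the lowest (9.37 and 9.41), and 4 of the 10 astrocyte markers measured (Aqp4, Slc1a3, Gja1 and Gjb6) were called higher by rank products. Gfap, the fifth variable one and the filament protein of astrocytes, was lowest in C1 and differed by -0.15 (standard error 0.16), or 0.011 without C1. Over 12 variable hippocampal neuron markers, C1 and C2 had the lowest means (9.18 and 9.32), against 9.45 to 9.65 in the other 8 rats, with 1 marker of 14 called higher and 1 lower. Choroid plexus markers, of which 20 of 24 were called higher, were high in C1 and C2 like Crebbp, but also in C5 and P3. The 8 variable oligodendrocyte markers had means from 10.85 to 11.26, with 1 of 9 called higher, and the 4 variable microglial markers from 7.82 to 8.44, with none of 10 called. Of the pineal and photoreceptor markers, 5 of 11 were called lower, and the 9 endothelial markers measured were all constant. For scale, of all 1789 genes with a variable probe set, 20.1% were called higher and 4.97% lower. The part of these cells in the values of Mef2a, Mef2c and Crebbp was not tested.

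Around these regulators, 75 genes of the pathway were measured in 5 lists, of which rank products called 3 higher in the C-group and 2 lower. Only 24 of the 75 had a variable probe set, so the calls were 12.5% and 8.33% of these, against 20.1% and 4.97% of all 1789 genes with a variable probe set (12.6% of all genes). Their median difference was 0.03 log2 units, and limma called none of them. Among the other factors of the CREB and MEF2 families, none of 12 was called: the difference was 0.08 (standard error 0.08) for Creb5, 0.0076 (0.0083) for Atf4 and -0.09 (0.14) for Crebzf, while the other 9 were constant. Without C1 these were 0.0017 for Creb5, 0.00063 for Atf4 and 0.046 for Crebzf, whose direction turned. All 11 measured coactivators, such as those of the CRTC family that bind Creb1, were constant.

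Of 10 measured repressors, Ncor1, a corepressor that acts with histone deacetylases, was called higher. Ncor1 was variable at 2 of its 3 probe sets and is given at a called one. Its values were 8.76, 8.65, 8.34, 8.49 and 8.13 in C1 to C5 and 8.65, 8.26, 8.21, 8.12 and 8.12 in P1 to P5, so that P1 lay among the higher C-group rats. The difference was 0.20 (standard error 0.14, FDR 0.0272), and Hdac5, a class IIa deacetylase gene, differed by 0.05 (standard error 0.06), or 0.0028 without C1. Of 21 kinases and phosphatases upstream, Ppp3ca, the catalytic subunit of calcineurin, was called lower at -0.54 log2 units (standard error 0.53, FDR 0.034). Only 1 of the 3 probe sets of Ppp3ca was variable. There C1 had 10.22 and the other 9 rats 12.78 to 13.07, and the difference was -0.0031 without C1. Camk2a, a kinase of the synapse, and Prkacb, a catalytic subunit of protein kinase A, differed by 0.15 and 0.06 (standard errors 0.17 and 0.09) and were not called. Camk2a was variable at 3 of its 4 probe sets and is given at the brightest of these. Its brightest probe set of all, with a mean of 12.20, was constant.

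Genes known as targets of MEF2 or CREB in active neurons differed in both directions. Of 21 measured, 12 were variable, with a median difference of -0.01. Ppargc1a, a coactivator of metabolic genes, and Penk, the enkephalin precursor, were called higher, by 0.23 and 0.14 (standard errors 0.24 and 0.15, FDR 0.0487 and 0.0474). Only 1 of the 3 probe sets of Ppargc1a was variable. Homer1, a scaffold of synapses, was called lower by -0.23 (standard error 0.16, FDR 0.0241). Homer1 was variable at 4 of its 5 probe sets and is given at a called one. Its other variable probe sets are not given here, so the call describes that probe set and not the whole gene. The immediate early genes Arc, Egr1, Nr4a1 and Fos differed by -0.16, -0.15, -0.08 and -0.04 (standard errors 0.17, 0.16, 0.12 and 0.19). Of the same kind, Nr4a2 differed by -0.03 and Jun by 0.08 (standard errors 0.13 and 0.06). Bdnf, the neurotrophin, differed by 0.13 (standard error 0.08), and none of these genes was called. Without C1 the differences were -0.037 for Arc, -0.031 for Egr1, -0.09 for Fos, 0.028 for Jun and 0.08 for Bdnf. Those of Nr4a1 (0.02) and Nr4a2 (0.036) turned direction. Without C1 the differences of Ncor1, Ppargc1a, Penk and Homer1 were 0.13, 0.08, 0.04 and -0.11. Of the 10 sets with 1 rat left out, Ncor1 and Homer1 kept their call in 5, Ppargc1a in 4, Ppp3ca in 3 and Penk in 2, with FDR up to 0.0996, 0.141, 0.297, 0.689 and 0.183.

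**Figure D4:**
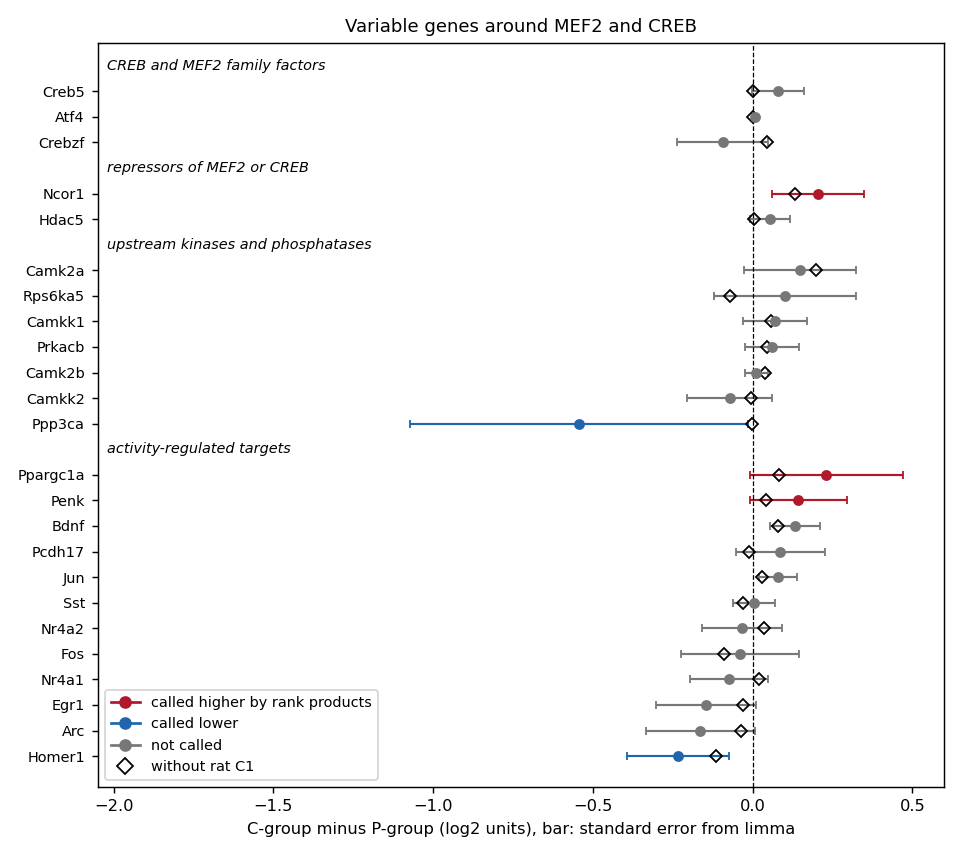
C-group minus P-group in log2 units (horizontal axis) for the 24 variable genes of the pathway lists, at the called or else the brightest variable probe set, with the standard error from limma as a bar. Red, blue and grey mark genes called higher, called lower and not called by rank products, and open diamonds the difference without rat C1. Ppp3ca moves from -0.54 to -0.0031 when C1 is left out, and no coactivator is drawn because all were constant.

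The 3 calls among these genes rested on the rats included and on the set of probe sets ranked. Without C1 or without C2, none of the 19 probe sets was called, and without C4 or P5 only that of Crebbp was. When rank products was run on the 2904 variable probe sets alone, it called 9 higher (0.310%) and none of Mef2a, Mef2c and Crebbp (FDR 0.761 or more). Across the leave-one-out sets the difference of Crebbp stayed between 0.17 and 0.39 log2 units, that of the called Mef2c probe set between 0.12 and 0.38, and that of the called Mef2a probe set between 0.09 and 0.16.

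**Figure D5:**
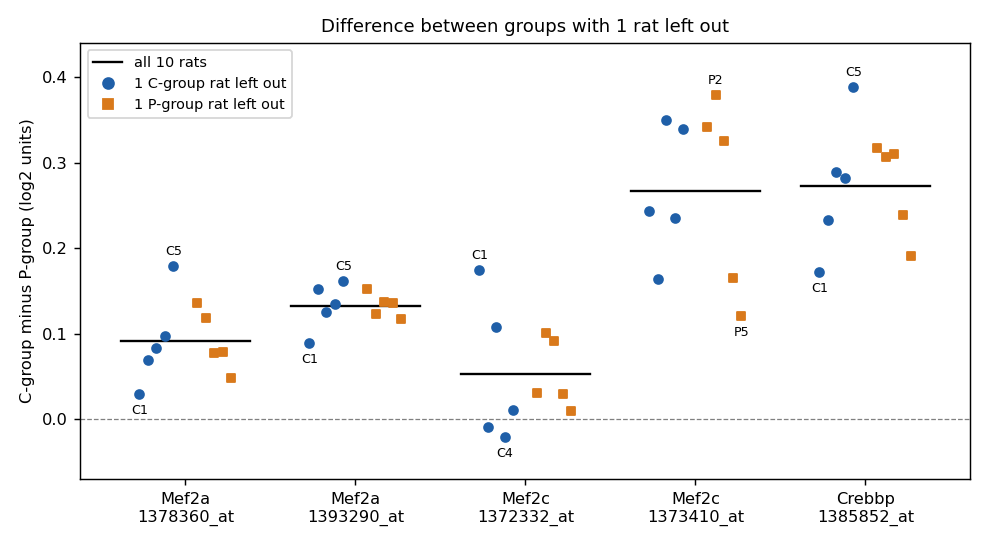
C-group minus P-group in log2 units (vertical axis) at the 5 variable probe sets with each rat left out in turn. Blue circles leave out a C-group rat and orange squares a P-group rat, black lines are the value over all 10 rats, and the rats whose omission gives the lowest and highest value are named. The 3 called probe sets stay above 0, whereas Mef2c 1372332_at crosses 0, at -0.02 without C4.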

How the data were processed

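Hippocampal mRNA of 10 rats, 5 in each group, was measured on Affymetrix GeneChip rat genome arrays, with biotin-labeled cRNA made from 100 ng of total RNA. Log2 values deposited by the authors had been made with qFARMS (quantile normalization, then factor analysis). Scanner files were not used here, so the alternative normalizations started from those log2 values. The 31099 probe sets held 57 controls, which were dropped. Among the others, 20826 had exactly 1 symbol in the platform annotation, 436 had several and were not named, and 9780 had none. The gene identifiers of all 19 member probe sets were found in RefSeq (GRCr8). Coordinates are given only for the RefSeq promoters.

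Rank products (Python 3.11.15, numpy 2.4.6) compared each C-group array with each P-group array (25 pairs) against 100 permutations of the values within arrays and took the percentage of false predictions as the FDR. The study's methods state neither setting. Differences were fitted in R 4.3.3 with limma 3.58.1 (lmFit, eBayes, Benjamini-Hochberg over all probe sets), which gave differences, standard errors and adjusted p-values. Both were checked on simulated arrays. Exact permutation tests compared probe sets of 1 gene, and correlations used 100000 resamples (scipy 1.17.1). Apart from the choice of the brightest probe set of a gene and the filter on the mean, levels were not compared between probe sets.

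The members and the 12 gene lists were chosen with earlier results of these data known. The genes named are the members, the called genes of each pathway list or up to 4 with the largest difference where none was called, and for each member gene with a variable probe set the 3 genes with the highest r. Camk2a, Prkacb, Hdac5, Arc, Egr1, Nr4a1, Nr4a2, Fos, Jun, Bdnf and the astrocyte markers were named after their values were seen. The 5 rats of a group carry separate replicate labels, and p-values measure the spread between them. Alternatives changed the pairing, the rats used, the normalization, the filter, the variance model and the random draw.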

Additional observations from a re-analysis of the deposited data

Results flagged for a closer look

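Rat P2 had a mean of 8.53 log2 units over the 9 variable pineal and photoreceptor markers, against 6.11 to 6.19 in P1, P3, P4 and P5, and its gap to the nearest of them was 0.967 of the range of the group. Rat P4 had a mean of 9.59 over the 12 variable hippocampal neuron markers, against 9.45 to 9.49 in the other 4 rats, a gap of 0.725 of the range. These were the only 2 flags among 40 groups tested (the variable probe sets of Mef2a, Mef2c and Crebbp, the genes most like them and 6 marker means), and chance flags about 1 in 20 groups (5%). No rat stood apart by this measure (a gap above 0.71 of the range) in the probe sets of Mef2a, Mef2c and Crebbp.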

How the results depend on the processing

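limma called no probe set under any alternative run. Over all probe sets rank products made 620 higher and 129 lower calls, 9 and 0 on the variable probe sets alone, and 157 and 36 on those with a mean at or above the median. Of the 3 calls in Mef2a, Mef2c and Crebbp, 0 remained on the variable probe sets alone and 2 with the mean filter, which lost Mef2a (FDR 0.0935). With 1 rat left out, the higher calls over all probe sets ran from 61 (without C1) to 789 and the lower calls from 10 (without P4) to 221, and the calls in Mef2a, Mef2c and Crebbp from 0 to 3. The higher calls also moved by over 1.5 times without C2 (110), C4 (234), P4 (409) or P5 (323), and the lower calls without C3 (221), P1 (82), P2 (21), P3 (49) or P5 (28). The pathway genes called ran from 0 (without C1, C2, C4 or P4) to 4 higher and from 0 (without C2, P2, P3, P4 or P5) to 3 lower. Without C1 and P2 together, an alternative chosen after seeing the data, 51 were called higher and 72 lower, and 1 of the 19 probe sets, that of Mef2c (FDR 0.024). The fewer arrays or probe sets that enter such a fit also change what can be called, and other causes were not tested. With the replicate block, 912 were called higher and 338 lower, and the probe sets of Mef2a, Mef2c and Crebbp were called as before (FDR 0.0108, 0.0035 and 0.003). The numbers do not pair the rats by any label: same-numbered rats correlated at 0.277, -0.0112, -0.389, 0.485 and 0.451 in their deviations from the group means, and not every rat correlated best with its own number. Of the differences, Mef2c 1372332_at ran from -0.021 (without C4) to 0.175 (without C1) and was also below 0 without C2 (-0.0082), and the difference between the Mef2a probe sets ran from -0.017 (without C5) to 0.083 and that between the Mef2c probe sets from 0.07 to 0.33 with 1 rat left out. The correlation between the Mef2a probe sets ran from 0.53 (without C1) to 0.816, and that between the Mef2c probe sets from 0.308 to 0.741 (without C1). Median centring, quantile normalization, another random draw and another variance model changed no call among the 19 probe sets. Signal over background was not available, and a constant probe set bounds no difference.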
